A study of Homo sapiens with 8 samples.

Results

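The box C/D small nucleolar RNAs (snoRNAs) of the imprinted Prader-Willi region on chromosome 15 were followed in small RNA libraries from MEC-1, a human B-cell line that was established from a patient's chronic lymphocytic leukaemia. The snoRNAs were the rows of the deposited count tables named SNORD64, SNORD107 or SNORD108, or with a symbol starting SNORD109, SNORD115 or SNORD116. This gave 71 of 2709 non-coding RNA features, namely SNORD108, SNORD109B, 44 SNORD115 copies and 25 SNORD116 copies; SNORD64, SNORD107 and SNORD109A were not analysed here. Exosome libraries (n = 5) came from vesicles that MEC-1 cells shed into bioreactor medium, and cell libraries (n = 3) came from the parental MEC-1 cells. All 8 libraries thus share 1 cell line, and the labels name no treatment. Per the labels' protocols, RNA under 200 nt was used, 30 ng of it went into each library, and PCR ran for 15 cycles. The medium was depleted of serum vesicles beforehand, except for that in the upper compartment of the bioreactor. The series belongs to work on what these exosomes do to monocytes, and the libraries address which small RNAs the exosomes carry relative to their cells. The design text pairs 3 exosome samples with cell samples without naming them. The labels do not say whether replicates are separate cultures; the p-values therefore measure the spread between these samples, and that spread may be technical.

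Box C/D snoRNAs are short nuclear RNAs that sit in a protein complex with the methyltransferase fibrillarin. The stretch just upstream of their D or D′ box pairs with a target RNA and directs methylation of the sugar of the paired base. The snoRNAs of the Prader-Willi region are processed from introns of one long transcript (SNHG14) that is made from the paternal chromosome, and in healthy tissue they are best known from neurons. SNORD116 and SNORD115 are tandem arrays of many near copies. SNORD116 has no established target in ribosomal RNA, and loss of the paternal SNORD116 array is linked to Prader-Willi syndrome. SNORD115 has been reported to pair with the pre-mRNA of a serotonin receptor. SNORD108 and SNORD109 are single or paired genes at the flanks of the arrays with no established target.

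All members lay on the plus strand of chromosome 15, in coordinates of GRCh37, the build of the deposited tables. SNORD108 was at 25232072 to 25232142, the SNORD116 array spanned 25296624 to 25353499, the SNORD115 array spanned 25415870 to 25515005 and SNORD109B was at 25523490 to 25523556. In GENCODE release 29 all 71 members lie inside the SNHG14 gene, 69 of them between its exons and the other 2, SNORD116-26 and SNORD116-27, overlapping an exon of one of its transcripts. All 71 had a transcript of the same length in that release, which is built on GRCh38. The sequences below are taken from it, run 5′ to 3′ on the RNA's own strand, and are written in DNA letters. Capitals mark the 16 bases just upstream of an internal CTGA (taken as the D′ box) and of the last CTGA (taken as the D box), the stretches where a C/D box guide would pair. The internal CTGA was the first one that leaves 16 bases after the C box; SNORD109B has 1 more CTGA inside its first stretch of capitals, and which of them is its D′ box was not determined. The first 3 are shown because they stand for the copies that did not pass the test between exosomes and cells, and the next 4 because they lie on the 3′ side of the array, which held 3 copies that fell, SNORD116-25 and SNORD116-26 with the largest differences of all members and SNORD116-27, and a copy that did not pass the test, SNORD116-29. SNORD109B is shown as the one tested member outside the SNORD116 array.
SNORD116-8: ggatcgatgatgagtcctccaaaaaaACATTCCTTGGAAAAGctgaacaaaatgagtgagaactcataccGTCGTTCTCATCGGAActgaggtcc
SNORD116-14: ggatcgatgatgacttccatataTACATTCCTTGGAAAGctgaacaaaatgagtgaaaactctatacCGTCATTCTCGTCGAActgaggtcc
SNORD116-24: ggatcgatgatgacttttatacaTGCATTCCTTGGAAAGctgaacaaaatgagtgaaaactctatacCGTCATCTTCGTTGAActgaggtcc
SNORD116-25: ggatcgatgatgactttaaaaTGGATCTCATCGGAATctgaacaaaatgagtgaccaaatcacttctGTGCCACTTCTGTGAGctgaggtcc
SNORD116-26: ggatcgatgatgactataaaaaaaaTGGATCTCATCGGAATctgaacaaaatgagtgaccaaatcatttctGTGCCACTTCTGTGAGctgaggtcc
SNORD116-27: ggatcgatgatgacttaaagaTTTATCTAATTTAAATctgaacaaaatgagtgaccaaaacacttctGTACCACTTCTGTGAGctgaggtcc
SNORD116-29: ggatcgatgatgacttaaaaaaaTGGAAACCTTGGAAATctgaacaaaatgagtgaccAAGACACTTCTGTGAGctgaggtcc
SNORD109B: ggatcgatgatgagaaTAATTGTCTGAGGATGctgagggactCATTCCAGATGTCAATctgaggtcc

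The C box core sequence TGATGA was searched along the whole RNA, on its own strand only, so a match need not lie at the C box. TGATGA was in 67 of 71 members (94.4%), and in 208 of 290 GENCODE snoRNA transcripts of the same length range, 67 to 102 nt (71.7%). Those 290 transcripts include the members. CTGA was in 69 of 71 members (97.2%) and in 276 of those 290 transcripts (95.2%). The SNORD116 copies fell into 3 sets by their closest match among SNORD116-8, SNORD116-14 and SNORD116-25. These 3 anchors were chosen after the values were seen, so the sets describe the data and carry no test. Closest to SNORD116-8 were SNORD116-1 to SNORD116-3 and SNORD116-5 to SNORD116-9 (8 copies, 93.8% to 100% identical to each other). Closest to SNORD116-14 were SNORD116-10 to SNORD116-19, SNORD116-23 and SNORD116-24 (12 copies). Closest to SNORD116-25 were SNORD116-25, SNORD116-26, SNORD116-27, SNORD116-29 and SNORD116-30 (5 copies). SNORD116-8 and SNORD116-14 were 87.5% identical over an alignment with gaps, whereas SNORD116-25 was 69.9% identical to SNORD116-8 and 74.7% to SNORD116-14. SNORD116-25 and SNORD116-26 were 93.8% identical to each other, and the capitals above show that they have the same 16 bases before both boxes.

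Libraries held 23353820 to 32436286 counts in exosomes and 25675636 to 57323598 in cells. The share of the most abundant feature, a 28S ribosomal RNA gene, was 23.3% to 51.4% in exosome libraries, and the highest of these was exosome 5. The correlation of log2 CPM across features ran from 0.923 to 0.986 among exosome libraries, from 0.932 to 0.969 among cell libraries and from 0.765 to 0.893 between them; features are not independent replicates. CPM here is a count divided by library size times its TMM factor, scaled to 1000000. Exosome 3 had the highest CPM of the exosome libraries for all 24 tested members and exosome 5 the lowest for 19 of them, so values without these libraries are given where they change a call. The summed member counts were 5330, 8905, 21491, 3697 and 1140 in exosomes 1 to 5, against 5597, 16624 and 28560 in cells 1 to 3. As a share of all counts, this was 0.0267% ± 0.0237 in exosomes and 0.0340% ± 0.0143 in cells (SD, n = 5 and 3), and the groups overlapped. Counting copies of identical sequence once gave 0.0219% in exosomes and 0.0297% in cells, and leaving out the most abundant feature of each library gave 0.0368% in exosomes and 0.0405% in cells.

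Nearly all of these counts belonged to SNORD116. Of the 71 members, 53 had at least 1 read in some library and 18 had none. SNORD108 and SNORD116-10 had 0 counts in all 8 libraries. A count of 0 allows up to 3 counts, which is 0.0657 to 0.210 CPM in the exosome libraries and 0.0578 to 0.0998 CPM in the cell libraries. Intervals and such limits cover counting error only, since the labels name no molecular identifiers and PCR copies are not independent molecules. The 44 SNORD115 copies together had 6, 6, 58, 3 and 0 counts in exosomes 1 to 5, against 7, 42 and 81 in cells 1 to 3. The largest count of any SNORD115 copy in any library was 10, and 16 of the 44 copies had no read anywhere. The SNORD115 copies with most reads were SNORD115-17, SNORD115-18 and SNORD115-19, with 0, 1, 4, 0 and 0 counts each in exosomes 1 to 5, against 0, 6 and 10 in cells 1 to 3. SNORD115-9, SNORD115-12 and SNORD115-20 had 0, 0, 4, 0 and 0 counts each in exosomes, against 0, 6 and 10 in cells. The SNORD115 array was thus at the detection limit in both kinds of library, and no copy of it could be tested.

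The comparison of exosome with cell libraries used edgeR's quasi-likelihood test over all 1178 features that passed the filter on low counts, with Benjamini-Hochberg adjustment over all of them and a call at an adjusted p under 0.05. The members tested were 24, namely 23 SNORD116 copies and SNORD109B; 47 members were not tested. Fold changes are exosome over cell. Of the tested members, 5 fell in exosomes (20.8%) and 0 rose, while 22.3% of all tested features were called lower and 20.7% higher. The share of members called lower was thus close to that of all features. No member rose at an unadjusted p under 0.05 either (0 of 24), and DESeq2 and limma-voom also called 0 higher. With exosomes 3 and 5 left out together, 5 members were again called lower. The median log2 fold change of the tested members was -0.51, with a range of -3.23 to 0.96, and that of all features was -0.09. Summed to 1 feature, the SNORD116 copies were at -0.94, and at -1.39 to -0.34 when single libraries were left out; no p is given for this sum. Between the groups, 3 of 24 tested members did not overlap. The same share over all features is not given, so this count is a description only. The values of every tested member by library are drawn in the plot of CPM in chromosomal order.

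**Figure D1:**
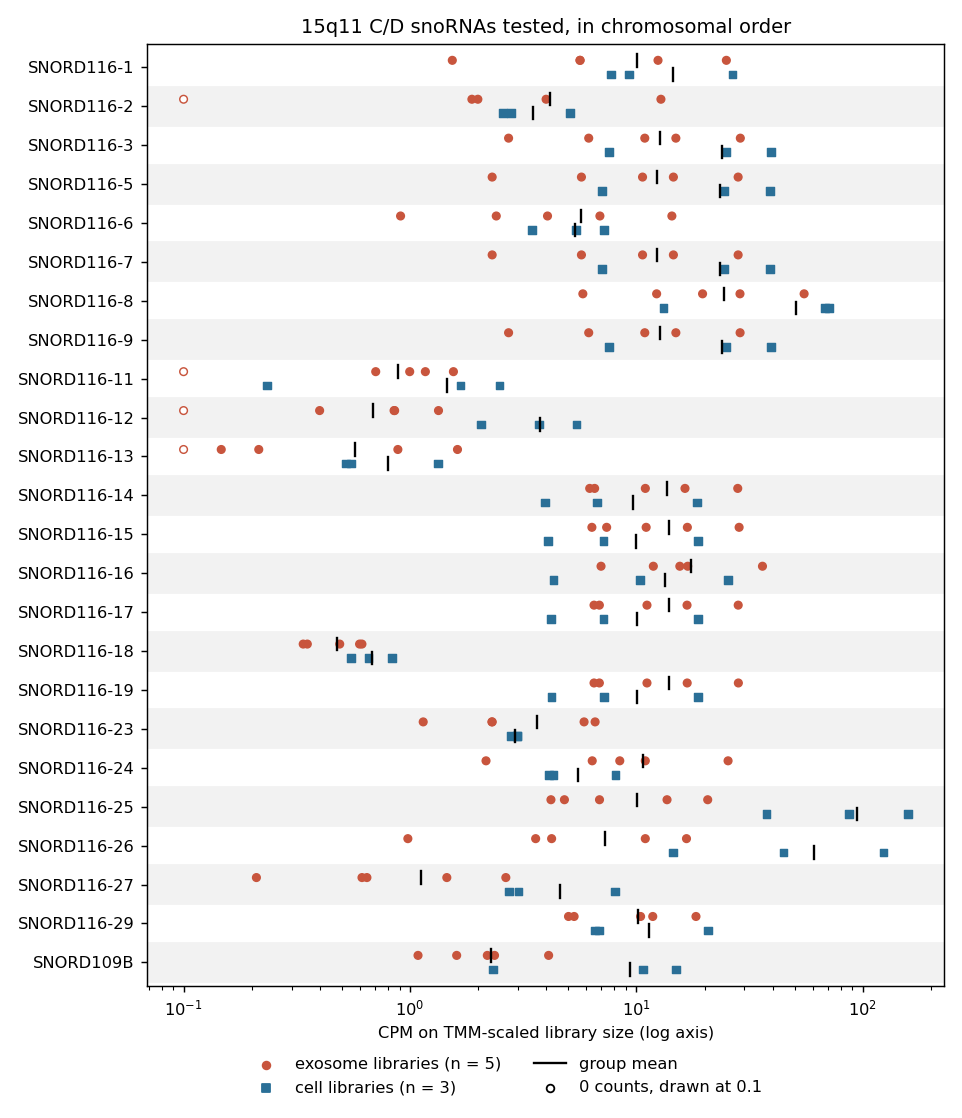
CPM of the 24 tested members (log axis) in 5 exosome libraries (circles, upper row of each member) and 3 cell libraries (squares, lower row), in chromosomal order, with black bars for group means and open symbols for 0 counts drawn at 0.1. The cell libraries of SNORD116-25 sit between 37.6 and 159 CPM, all above the exosome libraries, while the groups of SNORD116-14 to SNORD116-17 overlap.

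SNORD116-25 and SNORD116-26 fell most, by about an order of magnitude, and in cells they had the highest levels of the array. SNORD116-25 (GRCh37 chromosome 15, 25342810 to 25342901) had 6.87, 13.7, 20.7, 4.81 and 4.19 CPM in exosomes 1 to 5, against 37.6, 87.0 and 159 CPM in cells 1 to 3. Every exosome library was below every cell library. The log2 fold change was -3.23 (SE 0.65), 9.39-fold lower in exosomes, with an adjusted p of 0.00111 from edgeR. The call held in all 19 alternatives run, with log2 fold changes of -3.70 to -2.25 and a largest adjusted p of 0.0180, reached without cell 3. SNORD116-26 (25344646 to 25344741) had 3.59, 10.95, 16.7, 4.22 and 0.979 CPM in exosomes, against 14.5, 44.6 and 124 CPM in cells. Exosome 3 was above cell 1, so these groups overlapped. Its log2 fold change was -3.06 (SE 0.79, adjusted p = 0.00537 in edgeR), and without cell 3, the highest library, it was -1.62 with an adjusted p of 0.137. These libraries are of bulk RNA, so fewer vesicles or cells that hold an RNA and less of it in each cannot be told apart.

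SNORD116-27, SNORD116-12 and SNORD109B also fell, each at a lower level. SNORD116-27 (25346722 to 25346813), the neighbour of SNORD116-26 in the array, had 0.614, 1.45, 2.65, 0.645 and 0.210 CPM in exosomes, against 3.02, 8.05 and 2.74 CPM in cells. The groups were apart, but only narrowly, between exosome 3 and cell 3. Its log2 fold change was -2.02 (SE 0.72, adjusted p = 0.0328 in edgeR), and the call was lost without exosome 1, exosome 4, cell 2 or cell 3, with adjusted p-values of up to 0.191, and also with total or upper-quartile scaling and with other filters on low counts. SNORD116-12 (25322198 to 25322289), closest in sequence to SNORD116-17, had 0.399, 0.856, 1.34, 0.851 and 0 CPM in exosomes, against 2.06, 3.73 and 5.44 CPM in cells, with no overlap. Its log2 fold change was -2.40 (SE 0.80, adjusted p = 0.0232 in edgeR). Without exosome 1 the adjusted p was 0.0630, without exosome 4 it was 0.0689 and without cell 3 it was 0.200. Scaling by total counts, under which the median over all tested features was 0.19 in place of -0.09, ended the calls of SNORD116-12 (-1.86, adjusted p = 0.0893) and SNORD109B (-1.40, adjusted p = 0.132) and left those of SNORD116-25 and SNORD116-26. SNORD109B (25523490 to 25523556), at the far end of the SNORD115 array, had 2.36, 2.20, 4.10, 1.09 and 1.61 CPM in exosomes, against 2.33, 15.0 and 10.7 CPM in cells. Cell 1 lay among the exosome libraries, and the other cell libraries were above them all. Its log2 fold change was -2.03 (SE 0.62, adjusted p = 0.0145 in edgeR), and this call was lost without exosome 4 (-1.51, adjusted p = 0.0761), cell 2 (-1.52, adjusted p = 0.0824) or cell 3 (-1.51, adjusted p = 0.112). SNORD109B is identical in sequence to SNORD109A in GENCODE release 29, so its reads could come from either gene. With cell 3 left out, SNORD116-25 was the 1 member still called lower, and with exosome 4 left out there were 2.

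The copies closest to SNORD116-8 did not pass the test, in either direction (0 of 8), and their groups overlapped. SNORD116-8 (25315579 to 25315673), the most abundant copy per kb in exosomes, had 19.6, 28.7, 55.1, 12.3 and 5.80 CPM in exosomes, against 13.2, 68.0 and 70.9 CPM in cells. Its log2 fold change was -1.06 (SE 0.69, adjusted p = 0.234 in edgeR). SNORD116-5 and SNORD116-7, which have the same sequence and the same counts, had 10.6, 14.6, 28.2, 5.72 and 2.31 CPM each in exosomes, against 7.05, 38.9 and 24.5 CPM in cells. In all 3 copies cell 1 lay within the exosome range and cell 2 above every exosome library. SNORD116-3 had 10.9, 14.9, 28.8, 6.16 and 2.73 CPM in exosomes, against 7.57, 39.2 and 24.9 CPM in cells, and its sequence twin SNORD116-9 differed from it by at most 3 counts in any library. SNORD116-1 had 5.65, 12.5, 24.98, 5.63 and 1.54 CPM in exosomes, against 7.74, 26.5 and 9.31 CPM in cells. Cell 2 was the highest library of these copies and exosome 3 came next. SNORD116-6 had 4.05, 6.90, 14.4, 2.41 and 0.909 CPM in exosomes, against 3.46, 7.19 and 5.397 CPM in cells. SNORD116-2 had 1.99, 3.99, 12.8, 1.88 and 0 CPM in exosomes, against 2.58, 5.09 and 2.79 CPM in cells. In both of these, exosome 3 was the highest of all 8 libraries and exosome 5 the lowest. The log2 fold changes of the 8 copies ran from -1.06 to 0.26.

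The copies closest to SNORD116-14 had a median log2 fold change of 0.39, with a range of -2.40 to 0.96 over the 11 tested; SNORD116-12 was the 1 that fell and none rose. SNORD116-24 (25339184 to 25339275) had the highest log2 fold change of all members, 0.96 (SE 0.67, adjusted p = 0.270 in edgeR). It had 6.38, 10.95, 25.4, 8.45 and 2.17 CPM in exosomes, against 4.31, 4.13 and 8.09 CPM in cells. SNORD116-14 (25325289 to 25325380) had 10.96, 16.4, 28.05, 6.54 and 6.22 CPM in exosomes, against 3.95, 18.5 and 6.69 CPM in cells, a log2 fold change of 0.49 (SE 0.65, adjusted p = 0.572 in edgeR). In both copies exosome 3 was the highest library, and the groups overlapped. SNORD116-15 had 11.05, 16.8, 28.4, 7.39 and 6.36 CPM in exosomes, against 4.06, 18.7 and 7.17 CPM in cells. SNORD116-16 (25327915 to 25328006) had 15.6, 16.9, 36.1, 6.98 and 11.9 CPM in exosomes, against 4.31, 25.4 and 10.4 CPM in cells. SNORD116-17 had 11.1, 16.7, 28.2, 6.86 and 6.50 CPM in exosomes, against 4.198, 18.8 and 7.17 CPM in cells, and its sequence twin SNORD116-19 was within 2 counts of it in every library. Cell 1 was the lowest of the 8 libraries and exosome 3 the highest in each of these copies. SNORD116-23 had 2.30, 5.88, 6.57, 1.14 and 2.31 CPM in exosomes, against 2.80, 2.96 and 2.97 CPM in cells, so that the cell libraries lay inside the exosome range. SNORD116-11, SNORD116-13 and SNORD116-18 stayed under 3 CPM in every library, and none of them passed the test.

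SNORD116-29 (25351668 to 25351750) lies 3′ of SNORD116-27 and resembles it in the end of the stretch before the D box but not in the one before the D′ box, as the capitals show. It had 5.31, 10.4, 18.3, 5.02 and 11.8 CPM in exosomes, against 6.56, 20.7 and 6.82 CPM in cells. The groups overlapped over most of their range, and the log2 fold change was -0.15 (SE 0.59, adjusted p = 0.854 in edgeR). The last copy of the array, SNORD116-30, was below the filter. By position, the members called lower with all 8 libraries were 3 adjacent copies of the array, 1 low copy further 5′ and SNORD109B beyond the SNORD115 array. Of these, only SNORD116-25 kept its call without cell 3. The place of the SNORD109B reads is not fixed, since SNORD109A has the same sequence.

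Per kb of length, the order of the levels differed between exosomes and cells. In cells, SNORD116-25 was first with 1027 CPM per kb, SNORD116-26 second with 634 and SNORD116-8 next with 533, while SNORD116-3 and SNORD116-9 followed with 252 each. In exosomes, SNORD116-8 was first with 256 CPM per kb and SNORD116-16 second with 190, while SNORD116-25 was in place 13 with 109 and SNORD116-26 in place 15 with 75.8. SNORD116-14, SNORD116-15, SNORD116-17 and SNORD116-19 lay between 148 and 152 CPM per kb in exosomes and did not differ beyond the spread between libraries. SNORD109B had 33.9 CPM per kb in exosomes and 139 in cells, and no SNORD115 copy was above 1.59 in either.

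Within the SNORD116 array, the make-up of the counts was compared in each library on its own, which does not depend on scaling between libraries. Copies of identical sequence were counted once, but copies 1 or 2 bases apart were each counted. In exosome 1, SNORD116-14, SNORD116-15 and SNORD116-17 had 357, 360 and 363 counts. If such counts hold the same reads, these copies weigh too much in the shares and SNORD116-25 and SNORD116-26 too little. This was not tested. SNORD116-25 and SNORD116-26 together took 8.15%, 12.0%, 9.81%, 10.2% and 7.77% of the SNORD116 counts in exosomes 1 to 5, against 39.4%, 29.9% and 58.6% in cells 1 to 3. The groups were far apart, with means of 9.59% ± 1.70 in exosomes and 42.7% ± 14.6 in cells (SD, n = 5 and 3), and the widest 95% Wilson interval, in exosome 5, was 6.24% to 9.65%. The copies closest to SNORD116-14 took 46.0%, 42.4%, 41.5%, 44.9% and 54.0% in exosomes, against 21.5%, 21.5% and 10.7% in cells, again with no overlap. The copies closest to SNORD116-8 took 36.5% ± 9.41 in exosomes and 34.03% ± 7.07 in cells, and the groups overlapped. Of the exosome libraries, exosome 5 had the lowest share of these copies, 20.0%, and the highest share of the copies closest to SNORD116-25, 26.1%. Of the 248 counts behind that 26.1%, 169 were of SNORD116-29. No p is given for these shares, since the copies were grouped with their values known.

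**Figure D2:**
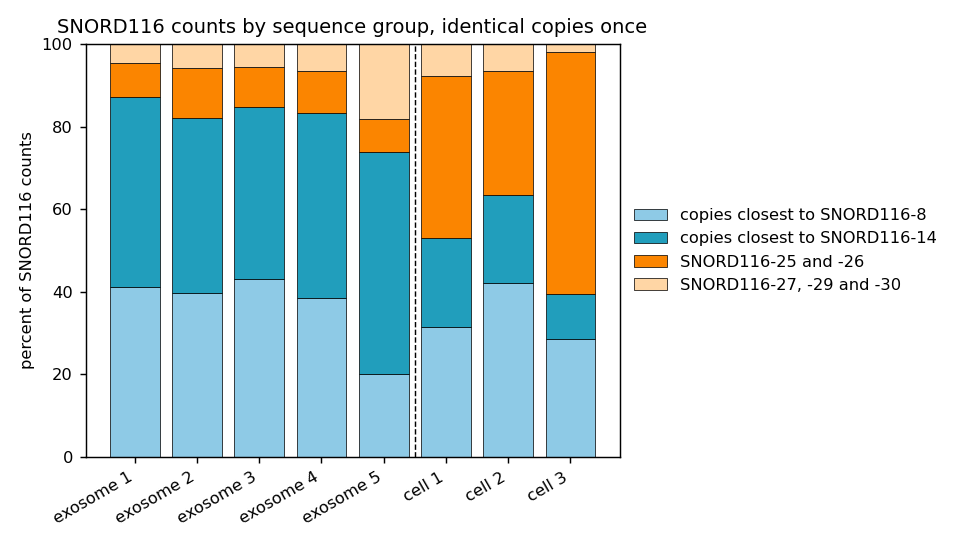
Percent of SNORD116 counts, identical copies once, by sequence set in each of 5 exosome libraries (left of the dashed line) and 3 cell libraries (right of it). Near-identical copies are each counted. SNORD116-25 and SNORD116-26 take 7.77% to 12.0% of the exosome bars and 29.9% to 58.6% of the cell bars.

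The same contrast was seen in ratios of single copies. The count of SNORD116-25 was 0.569 to 1.94 times that of SNORD116-24 in exosome libraries and 8.73 to 21.1 times in cell libraries, and both copies are 92 nt long. SNORD116-25 over SNORD116-29 was 0.355 to 1.31 in exosomes and 4.21 to 23.3 in cells. SNORD116-14 over SNORD116-8 was 0.509 to 1.07 in exosomes and 0.0943 to 0.300 in cells. These 3 ratios kept the exosome and cell libraries apart. SNORD116-14 over SNORD116-29 did not, at 0.527 to 2.06 in exosomes and 0.603 to 0.980 in cells. They are all descriptions of pairs chosen with the values known and were not tested.

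The members were next set against the other box C/D snoRNAs of the table, many of which guide methylation of ribosomal RNA. The set holds every other feature with a symbol starting SNORD, including the 40 of SNORD112 to SNORD114 on chromosome 14. Of 168 such features, 122 were tested, 99 fell in exosomes (81.1%) and 1 rose, SNORD89, named here after its values were seen; their median log2 fold change was -2.97, against -0.51 for the 15q11 members. Of the 24 tested members, 22 lay above the median of the other C/D snoRNAs, and 10 of the 122 others lay above the median of the members. The median over all tested features was -0.09, so most of the table also lay above that of the other C/D snoRNAs. The count of 22 includes near-identical copies and is a description only. The members took 1.096%, 1.31%, 2.08%, 1.35% and 0.606% of all C/D snoRNA counts in exosomes 1 to 5, against 0.111%, 0.118% and 0.163% in cells 1 to 3. The lowest exosome library was above the highest cell library, and the means were 1.29% ± 0.532 in exosomes and 0.131% ± 0.0280 in cells (SD, n = 5 and 3). The summed counts of the other C/D snoRNAs were 187073 to 1012826 in exosome libraries and 5020227 to 17524683 in cell libraries, while the share of the members in all counts overlapped between the groups.

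**Figure D3:**
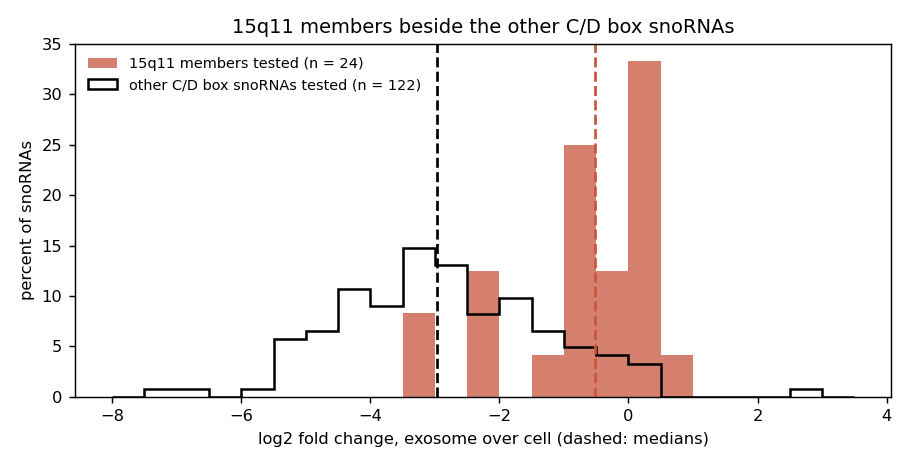
Distribution of log2 fold changes, exosome over cell, of the 24 tested 15q11 members (filled) and of 122 other box C/D snoRNAs (outline), as percent of each set per bin, with dashed lines at the medians of -0.51 and -2.97. The members sit to the right of most other C/D snoRNAs, apart from 5 members below a log2 fold change of -2.

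Each member's difference from the other C/D snoRNAs was tested in a second edgeR quasi-likelihood fit, in which library sizes were the TMM-scaled sums of the other C/D snoRNAs. On this scale 16 of 24 tested members were higher in exosomes (66.7%) and 0 lower, with 0 lower also at an unadjusted p under 0.05. Since the denominator itself fell, 56.8% of all tested features were higher on this scale and 2.46% lower, and the median over all features was 2.62, above the members' median of 1.99. Being higher than the C/D snoRNAs was thus shared with most of the table; among the other 122 C/D snoRNAs, 16 were higher (13.1%) and 21 lower (17.2%). The fit uses the same libraries as the first, rescaled, and is no independent evidence. By sequence set, 8 of 8 copies closest to SNORD116-8 were higher, 7 of 11 of those closest to SNORD116-14, and 1 of 4 of those closest to SNORD116-25. The sets were chosen with the values known, and the 8 copies closest to SNORD116-8 hold 6 distinct sequences. Near copies are not separate observations, so these counts are descriptions only.

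SNORD116-24 had the largest difference from the other C/D snoRNAs, 3.56 (SE 0.88, adjusted p = 0.00204 in edgeR), followed by SNORD116-15 at 3.23 (SE 0.78) and SNORD116-14 at 3.21 (SE 0.79). The calls of SNORD116-14, SNORD116-15, SNORD116-16, SNORD116-17, SNORD116-19 and SNORD116-24 held in all 15 alternatives run for this fit, with a largest adjusted p of 0.0186. SNORD116-29 was at 2.49 (SE 0.77, adjusted p = 0.00932 in edgeR), and without exosomes 3 and 5 together its adjusted p was 0.0524. SNORD116-8, at 1.81 (SE 0.73, adjusted p = 0.0370 in edgeR), and the other copies closest to it were near the threshold: all 8 lost their call without cell 3, and 7 of them without cell 1 or without exosome 3. The count of 16 fell to 9 without exosome 3, to 9 without cell 1, to 7 without cell 3 and to 8 without exosomes 3 and 5 together. It was 21 with the summed C/D counts alone as library size, under which the median over all features was 4.12 in place of 2.62. The share of all features called in each of these settings is not given, so these counts cannot be set against the whole table. SNORD116-25 and SNORD116-26, in contrast, did not differ detectably from the other C/D snoRNAs. Their differences were -0.45 (SE 0.64, adjusted p = 0.550 in edgeR) and -0.14 (SE 0.75, adjusted p = 0.882 in edgeR). SNORD109B, at 0.89 (SE 0.81, adjusted p = 0.341 in edgeR), SNORD116-12, at 0.45 (SE 1.06), and SNORD116-27, at 0.50 (SE 0.94), did not pass either. With the summed C/D counts alone, however, SNORD109B was at 2.42 (adjusted p = 0.0112 in edgeR) and SNORD116-27 at 2.10 (adjusted p = 0.0493 in edgeR), both called higher. With TMM factors, the 5 members that fell against all features were among the 8 with no call relative to the other C/D snoRNAs; the other 3 were SNORD116-11, SNORD116-13 and SNORD116-18, all with low counts.

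**Figure D4:**
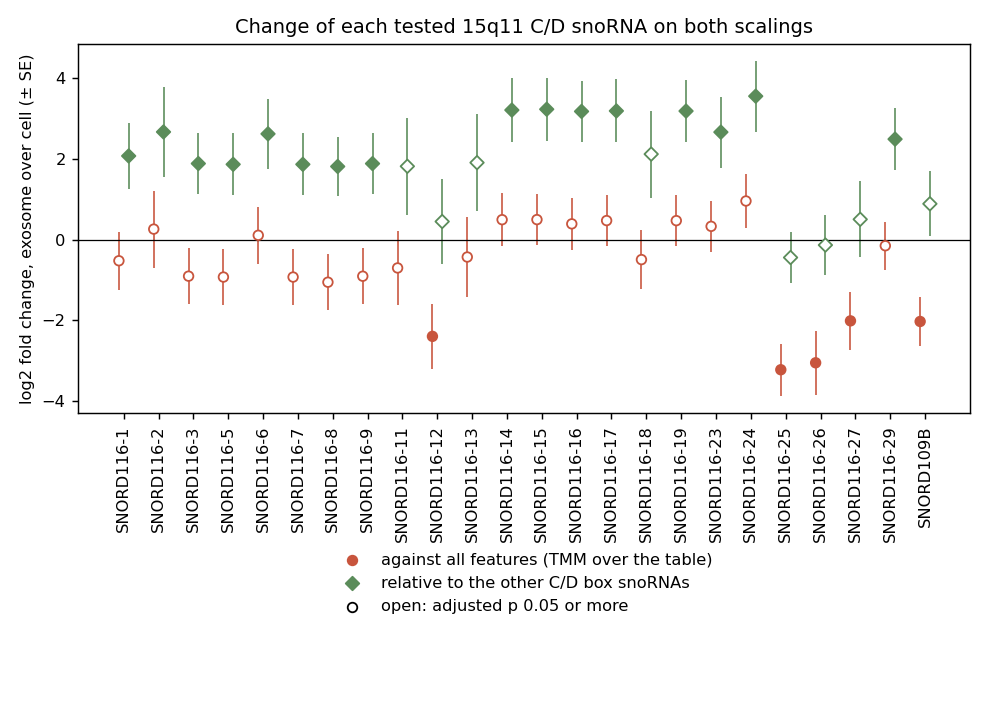
Log2 fold change, exosome over cell, with its SE, of each of 24 tested members in chromosomal order, against all features (circles) and relative to the other C/D snoRNAs (diamonds); filled symbols have an adjusted p under 0.05. SNORD116-25, SNORD116-26 and SNORD116-27 sit below SNORD116-24 and SNORD116-29 on both scales, and SNORD116-24 has the highest value on each.

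Near copies limit how far single values can be assigned. Among the 25 SNORD116 copies there were 22 distinct sequences, and among the 44 SNORD115 copies 38. SNORD116-5 and SNORD116-7 had equal counts in all 8 libraries, SNORD116-3 and SNORD116-9 in 7 of 8 and SNORD116-17 and SNORD116-19 in 4 of 8, and how reads with several matches in the genome were counted is not stated in the labels. Copies 1 base apart were often almost equal. SNORD116-3 and SNORD116-5 differ by G83A (positions counted from 1 at the 5′ end), and the ratio of their counts was 1.01 to 1.18 over the 8 libraries. SNORD116-14 and SNORD116-17 differ by T74C, with a ratio of 0.933 to 0.995. Other pairs with as few differences had unequal counts. SNORD116-17 and SNORD116-18 differ by A19T, and SNORD116-17 had 7.65 to 45.9 times the counts of SNORD116-18. SNORD116-3 and SNORD116-8 differ by C18T and T22A, and the ratio was 0.352 to 0.577. Values of copies closest to SNORD116-8 or SNORD116-14 are therefore uncertain one by one and are not independent of each other, while SNORD116-25, SNORD116-26, SNORD116-27 and SNORD116-29 had no copy closer than 93.8% identity.

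Other genes bear on the setting of these values. The other imprinted C/D array of the genome, SNORD112 to SNORD114 on chromosome 14, had 40 features with summed counts of 6 to 47 in exosome libraries, against 3, 464 and 2 in cells 1 to 3. It allowed a test of 1 feature, SNORD113-5, which did not pass (log2 fold change 0.08). Of the listed other genes of the 15q11 region, the table held PWRN1, a long non-coding RNA gene (24738284 to 24897277) upstream of the arrays. PWRN1 had 2.21, 0.542, 0.789, 3.31 and 4.68 CPM in exosomes, against 0.219, 0.200 and 0.212 CPM in cells, and rose with a log2 fold change of 3.42 (SE 0.88, adjusted p = 0.00533 in edgeR). Its counts were low, 72, 19, 36, 113 and 67 in exosomes 1 to 5, against 8, 6 and 11 in cells 1 to 3. With RNA under 200 nt, these reads come from an undetermined part of the gene. Exosome 5, the lowest library of many members, was the highest for PWRN1 in CPM.

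Markers of other cell types were read from miRNA genes. Of 12 listed neural miRNA genes, 9 were in the table and 7 tested, and none passed the test. MIR124-2 and MIR124-3 were at 0 in every library, while the 7 tested genes had reads. The summed level of the 9 genes was 17.3 to 58.9 CPM in exosomes and 51.5 to 95.7 CPM in cells. This sum holds both MIR9-1 and MIR9-3, which had near-identical counts. MIR122, the liver miRNA, rose, at 19.9 to 114 CPM in exosomes and 0.424 to 2.00 CPM in cells. MIR143 and MIR126 (2 of 3 listed for stroma and endothelium) rose too, with a sum of 15.0 to 80.6 CPM in exosomes and 1.86 to 6.73 CPM in cells. The 2 measured of 4 red cell and myeloid miRNAs did not pass, at 25.7 to 93.2 CPM in exosomes and 14.8 to 51.7 CPM in cells. Nor did MIR150 and MIR181A1, the 2 measured of 4 B-cell miRNAs, at 300.2 to 485 CPM in exosomes and 131 to 427 CPM in cells. The part of RNA from other cells in the values of the snoRNAs was not tested.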

How the data were processed

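Each of the 8 libraries has a deposited table of raw counts of reads per feature, made with featureCounts per the file headers. Cutadapt 1.1, STAR and DESeq2 1.8.2 and the GRCh37 build (hg19, hs37d5) are named in the submitters' processing notes. Tables were joined by gene symbol. Members and lists were chosen with earlier results of these data known. Genes named with values were those called in either fit and the 5 most abundant of each array; SNORD115-20 tied with the fifth.

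Counts were tested with edgeR 4.0.16 in R 4.3.3 (TMM factors, the default filter at a minimum of 10 counts, quasi-likelihood F test, Benjamini-Hochberg over all features tested, both kinds of library in 1 model of 2 groups), and the script was tested on simulated data. In the simulated data, 12% of features with a true log2 fold change of 1.5 were called, and 27.7% of those at -1.5. At 3 and -3 the shares called were 88% and 88.6%. Changes of the smaller size were thus mostly missed in the simulation, which limits what the lack of a call means. There, 953 of 1144 features had no true change. In the data, 22.3% of features were called lower and 20.7% higher, so the simulated shares need not hold for this fit. The standard error was the log2 fold change over the square root of F. A second fit used the other C/D snoRNAs for library sizes. Alternatives were other scalings and filters, DESeq2 1.42.0, limma-voom (limma 3.58.1), features of near-identical counts taken once, single libraries left out and a replicate block. Sequences were compared by global alignment (match 1, mismatch -1, gap opening -2, gap extension -0.5). Depth ran from 23353820 to 57323598 counts, and shares have 95% Wilson intervals.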

Additional observations from a re-analysis of the deposited data

Results flagged for a closer look

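Over the 5 exosome libraries, 2 of the 32 groups of values checked held a sample far from the others, SNORD115-9 and SNORD115-12. Both had 0.0876 CPM in exosome 3, which is 4 counts, and 0 in the other exosome libraries. The copies have the same sequence and the same counts in all 8 libraries, so they make up 1 observation. Chance alone flags about 1 group in every 20 in such a check of normally distributed values, which these low counts are not. The check sets the gap to the nearest value against the range. With 0 in all other exosome libraries that ratio is 1.0, so any count in exosome 3 would have been flagged. Exosome 3 was also the library with most SNORD115 reads among the exosomes, 58 counts in all.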

How the results depend on the processing

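Of the alternatives, 19 were run for the comparison against all features and 15 for the one relative to the other C/D snoRNAs; those without exosomes 3 and 5 together, those of libraries 1 to 3 without a block and the shares with identical sequences once were chosen after seeing the data. The count of members called lower, 5, was 2 with total scaling, and ran from 1 to 5 when single libraries were left out, with 1 without cell 3. The count called higher relative to the other C/D snoRNAs, 16, was 8 without exosomes 3 and 5 together and ran from 7 to 16 when single libraries were left out; it was 21 with total scaling, which added SNORD116-11, SNORD116-13, SNORD116-18, SNORD116-27 and SNORD109B, while limma-voom added SNORD116-18 and the replicate block SNORD116-11. No member was called higher against all features, or lower relative to the C/D snoRNAs, in any alternative. The shares of all features called in the alternatives are not given, so a table-wide change in calls cannot be told apart from one of the members. As a share of C/D snoRNA counts in place of all counts, the members took 1.29% in exosomes and 0.131% in cells.

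The deviations of exosome and cell libraries with the same number had correlations of 0.10, -0.08 and 0.16 for numbers 1 to 3. Those with unlike numbers had correlations of -0.19 to 0.07. With so few libraries this cannot decide which are paired. The numbers are not taken as pairs because the design text does not name the paired samples. With the replicate number as a block in libraries 1 to 3, 3 members were called lower and 17 higher relative to the C/D snoRNAs; without the block, libraries 1 to 3 gave 3 and 16.

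Members near 0 changed sign. With total scaling SNORD116-1 was at 0.19, SNORD116-13 at 0.18 and SNORD116-29 at 0.35, and relative to the C/D snoRNAs SNORD116-25 was at 0.97 and SNORD116-26 at 1.21, none of them called. SNORD116-29 was at 0.16 with upper-quartile scaling, 0.18 without a filter and 0.27 with at least 50 counts in 3 libraries. With limma-voom SNORD116-2 was at -0.71, SNORD116-6 at -0.28 and SNORD116-12, relative to the C/D snoRNAs, at -0.0381. With the replicate block SNORD116-11 was at 0.0483, SNORD116-29 at 0.0832 and SNORD116-26, relative to the C/D snoRNAs, at 0.11; without the block these libraries gave SNORD116-1 at 0.0210, SNORD116-13 at 0.23, SNORD116-29 at 0.0408 and SNORD116-26, relative to the C/D snoRNAs, at 0.12. Without exosomes 3 and 5 together, SNORD116-2 was at -0.35 and SNORD116-6 at -0.21. With single libraries left out, the ranges were -0.88 to 0.20 for SNORD116-1, -0.46 to 0.75 for SNORD116-2, -0.23 to 0.61 for SNORD116-6, -1.24 to 0.16 for SNORD116-11, -0.93 to 0.13 for SNORD116-13, -0.10 to 1.22 for SNORD116-16 and -0.49 to 0.50 for SNORD116-29, and, relative to the C/D snoRNAs, -0.0639 to 0.75 for SNORD116-12 and -0.46 to 0.41 for SNORD116-26. The cause of these shifts was not tested. Depth limits the SNORD115 copies, SNORD108 and SNORD116-10, which had too few counts to compare.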
